A study of Arabidopsis thaliana with 6 samples.

Results

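The cytochrome c maturation genes of the Arabidopsis thaliana mitochondrial genome were described by their RNA, by their ribosome footprints and by the reading frame of those footprints. The members were taken by name. They are ccmB, ccmC, ccmFN1 and ccmFN2, which are 4 of the 24 genes with a TPM value (a level per transcript length that sums to 1000000 in each library), and ccmFc, whose 2 exons appear among the frame shares beside the other 4 genes. The members thus fill 6 of the 56 rows of named genes and exons in the frame data. The level of ccmFc in RNA and in footprints was not analysed here.

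Cytochromes of the c type carry heme bound covalently to the protein, and in plant mitochondria this bond is made by the cytochrome c maturation machinery inherited from bacteria. CcmB is the membrane part of an ABC transporter-like complex, CcmC hands heme to the chaperone CcmE, and CcmF takes part in joining heme to the apocytochrome. In Arabidopsis the gene for CcmF is in pieces: ccmFN1 and ccmFN2 encode parts of its amino-terminal portion and ccmFc its carboxy-terminal portion. The ccmFc gene holds an intron, so its mRNA has to be spliced before the whole frame can be read. CcmA, CcmE and CcmH are made from nuclear genes and imported. The machinery serves cytochrome c and cytochrome c1, both of which are also of nuclear origin.

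Mitochondria came from the youngest leaves of Col-0 plants aged 9 to 10 weeks, grown under a cycle of 8 h light and 16 h darkness. Chloramphenicol (100 µg per ml), an inhibitor of bacterial-type ribosomes, was added to all thawed preparations. Plants labelled wild type were compared with a heterozygous rps10 mutant, labelled Rps10 +/-, which was divided into the phenotypes P2 and P3. The gene rps10 encodes a small-subunit protein of the mitochondrial ribosome, and the sources used here do not say how the mutant was made. Each of these 3 kinds of plants gave 1 footprint library and 1 library of total RNA, and each library pooled 15 mitochondrial preparations. P2 and P3 carry the same genotype label and are both set against the same wild-type libraries, so they are not independent of each other. Leaf amounts were about 30 g for a wild-type isolation and about 15 g for a mutant isolation, and kanamycin (50 mg per litre) was given to mutant seedlings, so these conditions and the genotype cannot be told apart, and neither can fewer mitochondria and less RNA per mitochondrion. With 1 library per group there is no replicate spread and no test, and a gene is called higher or lower where its TPM differed by at least 1.5-fold (0.58 on the log2 scale).

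The footprint libraries of wild type, P2 and P3 had 416254, 80146 and 48653 reads on mitochondrial coding sequence (CDS), and the RNA libraries had 1971931, 3126478 and 2122781. After tRNA and rRNA were set aside, non-coding sequence held 37.4% of the mitochondrial footprint reads of wild type, 82.7% of those of P2 and 85.1% of those of P3. In RNA it held 39.6%, 52.9% and 53.8% in the same order. Reads of the plastid genome were 5.32% of the wild-type RNA library, 1.22% in P2 and 1.21% in P3. How many reads lie behind a single gene is not given by the files, and the members are among the less abundant genes. The part of these library differences in the results below was not tested.

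In RNA, all 4 members with TPM took a larger part of the mitochondrial mRNA in both phenotypes than in wild type. Together they held 0.989% of the summed RNA TPM of wild type, 2.99% of that of P2 and 3.07% of that of P3. All 4 were past 1.5-fold higher in each phenotype, against 58.3% of all 24 genes in P2 and 58.3% in P3. None was lower, against 8.33% in each. Most other genes at ranks 13 to 24 of wild-type RNA level were also called higher in both phenotypes. These were nad3, rps12, rpl16, matR, tatC, rps4 and rps7, while atp6.2 was not called. Such calls were thus not particular to the members. The members' median log2 ratio was 1.42 in P2 and 1.45 in P3, beside 0.84 and 0.78 over all 24 genes. No member's direction turned under any scaling tried, although with ratios centred on the median gene 2 members in P2 and 3 in P3 were past 1.5-fold.

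Wild type had 1884 TPM of ccmB RNA, P2 had 8669 and P3 had 9244. Both mutant libraries stood far above wild type and close to each other. The ratio was 4.60-fold in P2 and 4.91-fold in P3, which ranked 1 among the 24 genes in each phenotype. In the order of RNA levels ccmB moved from rank 23 of 24 in wild type to rank 21 in both phenotypes.

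In the same order ccmC RNA had 3781, 9990 and 9831 TPM, a ratio of 2.64-fold in P2 and 2.60-fold in P3. It was the most abundant member in each RNA library, at rank 20 of 24 throughout. The ccmFN2 RNA had 2765, 7526 and 7931 TPM, which was 2.72-fold higher in P2 and 2.87-fold in P3. The ccmFN1 RNA had 1465, 3711 and 3686 TPM, which was 2.53-fold and 2.52-fold higher. It was the least abundant of all 24 RNAs in each of the 3 libraries. Within wild type the highest member exceeded the lowest by 2.58-fold, within P2 by 2.69-fold and within P3 by 2.67-fold, so the spread within the group was about the same in each RNA library.

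**Figure D1:**
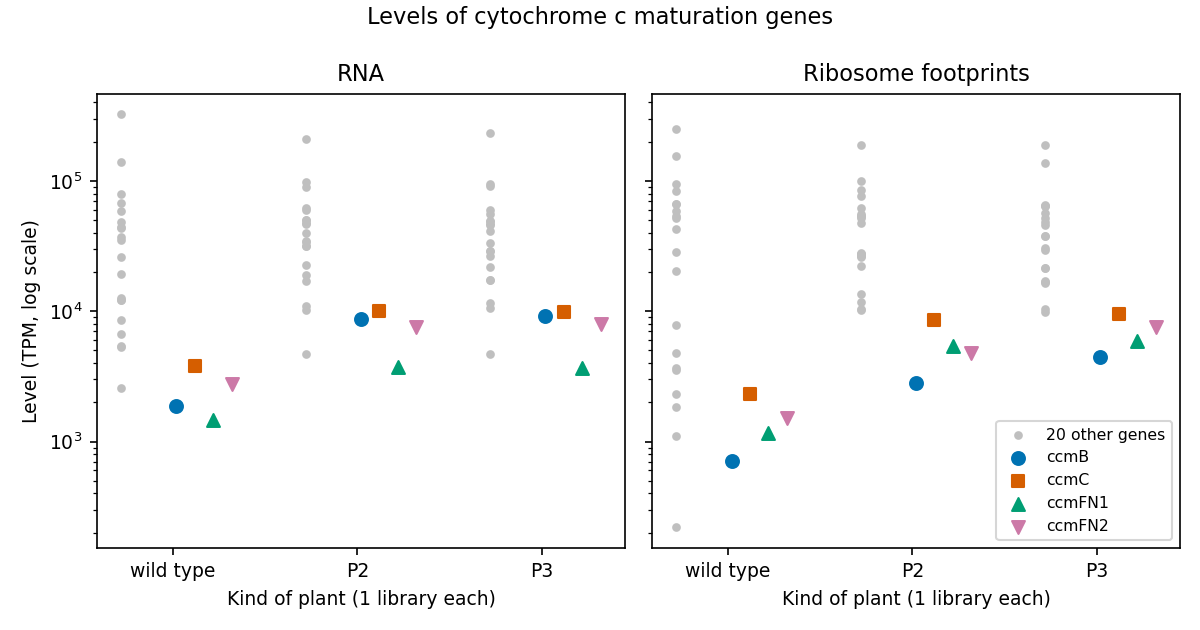
Level of each gene (TPM, log axis) in the RNA libraries (left) and the footprint libraries (right) of wild type, P2 and P3, with 1 library per point; coloured symbols are the 4 cytochrome c maturation genes and grey points the 20 other genes. The members lie in the lower part of each column; rps7 is below ccmC in each RNA library, matR, rps4 and tatC are below it in wild-type footprints, and no other gene is below it in the mutant footprint libraries.

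Footprints on the members also took a larger part in both phenotypes. They held 0.571% of the summed footprint TPM of wild type, 2.16% of that of P2 and 2.75% of that of P3. All 4 were past 1.5-fold higher in each phenotype, against 58.3% of the 24 genes in P2 and 58.3% in P3. None was lower, against 29.2% in each. The other genes at ranks 13 to 24 of wild-type footprint level were also called higher in both phenotypes. These were atp6.2, rps7, rps12, rpl5, rpl16, rps4, tatC and matR, so such calls were not particular to the members. The members' median log2 ratio was 1.93 in P2 and 2.33 in P3, beside 1.30 and 1.32 over all genes. This direction describes a part of the footprints on the 24 genes, and it holds on the TPM scale and when centred on the median gene but not with the CDS shares that follow. When centred, ccmC (0.58) and ccmFN2 (0.35) in P2 were no longer past 1.5-fold. The CDS share of all filtered reads has tRNA, rRNA and nuclear reads in its denominator. Mitochondrial tRNA and rRNA were 56.7% of the wild-type footprint library, 88.7% in P2 and 86.6% in P3. Nuclear reads held a larger part in wild type than in P2 (1.90%) and P3 (1.77%). That share thus varies with these reads too, and their part in the scaled values was not tested. When TPM were multiplied by the share of all filtered reads that lay on CDS (5.37% for wild type, 0.530% for P2 and 0.407% for P3), all 4 members were lower in both phenotypes (median -1.41 and -1.39). When they were multiplied by the share of CDS among mitochondrial reads that were neither tRNA nor rRNA, a scaling added after the data were seen, the medians were 0.084 and 0.26, no member was past 1.5-fold, and the values below 0 were those of ccmFN2 in P2 (-0.20) and of ccmC in P3 (-0.02).

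Wild type had 711 TPM of footprints on ccmB, P2 had 2815 and P3 had 4431. Both phenotypes lay above wild type on this scale. The ratio was 3.96-fold in P2 and 6.23-fold in P3, and ccmB had the lowest footprint level of the 24 genes in both phenotypes. Footprints on ccmFN2 had 1525, 4796 and 7550 TPM, a ratio of 3.15-fold and 4.95-fold. For ccmFN1 the values were 1160, 5454 and 5919 TPM, which was 4.70-fold and 5.10-fold higher. For ccmC they were 2312, 8541 and 9583 TPM, which was 3.69-fold and 4.14-fold higher. The last 2 genes had similar levels in P2 and P3.

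Between the phenotypes, RNA of the members was nearly equal. The log2 ratio of P3 over P2 lay between -0.02 (ccmC) and 0.09 (ccmB), and 0 of the 4 members were past 1.5-fold in either direction, as were 0% of the 24 genes. In footprints ccmB and ccmFN2 were past 1.5-fold higher in P3 than in P2, each by 1.57-fold, against 20.8% of the 24 genes, while ccmC (1.12-fold) and ccmFN1 (1.09-fold) were not. The ratios of ccmB and ccmFN2 were equal to each other and to that of tatC, as they would be if each gene had the same number of reads in both libraries. Reads per gene are not in the files used, so whether these calls reflect more than the scaling of the libraries was not tested. With TPM multiplied by either CDS share none of the 4 was past 1.5-fold.

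The log2 ratios of the 4 members spanned 0.58 in P2 and 0.59 in P3 in footprints, 0.86 and 0.96 in RNA and 1.11 and 0.68 in efficiency. Of the other lists, the 4 complex I genes spanned 2.50 and 2.94 in footprints and 0.68 and 0.75 in RNA, so the members were the closer group in footprints but not in RNA. The 3 other genes with wild-type footprint levels below that of ccmC had larger ratios on the TPM scale: matR, for a maturase, had 5.94 in P2 and 6.59 in P3, rps4, for a ribosomal protein, had 3.93 and 4.36, and tatC, for a protein translocase subunit, had 3.25 and 3.90. These genes were picked after their values were seen. The low wild-type level by which they were picked is also the denominator of these ratios, which favours large values. The ribosomal protein genes as a list had a median of 3.93 and 4.17, and the ATP synthase genes had -0.99 and -1.29, so the members' median lay between these medians. The lists overlapped the members: in P2 the ATP synthase gene atp6.2 (1.74) was above ccmFN2, and the ribosomal protein gene rps7 (1.08) was below every member. By the distance over 4 ratios (RNA and footprints, P2 and P3, all against the same wild-type libraries), the gene most like ccmC and most like ccmFN2 was in each case the other of that pair (0.38 log2 units apart). The gene most like ccmFN1 was ccmC (0.47), and the gene most like ccmB was ccmFN2 (1.18). Outside the group the closest were atp6.2 (1.434), rps7 (1.434) and cox3 (1.52) for ccmC, rps7 (1.58), atp6.2 (1.60) and cox3 (1.71) for ccmFN2, rpl5 (1.28), atp6.2 (1.496) and cox3 (1.70) for ccmFN1, and rpl5 (2.31), tatC (2.55) and rps7 (2.63) for ccmB.

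**Figure D2:**
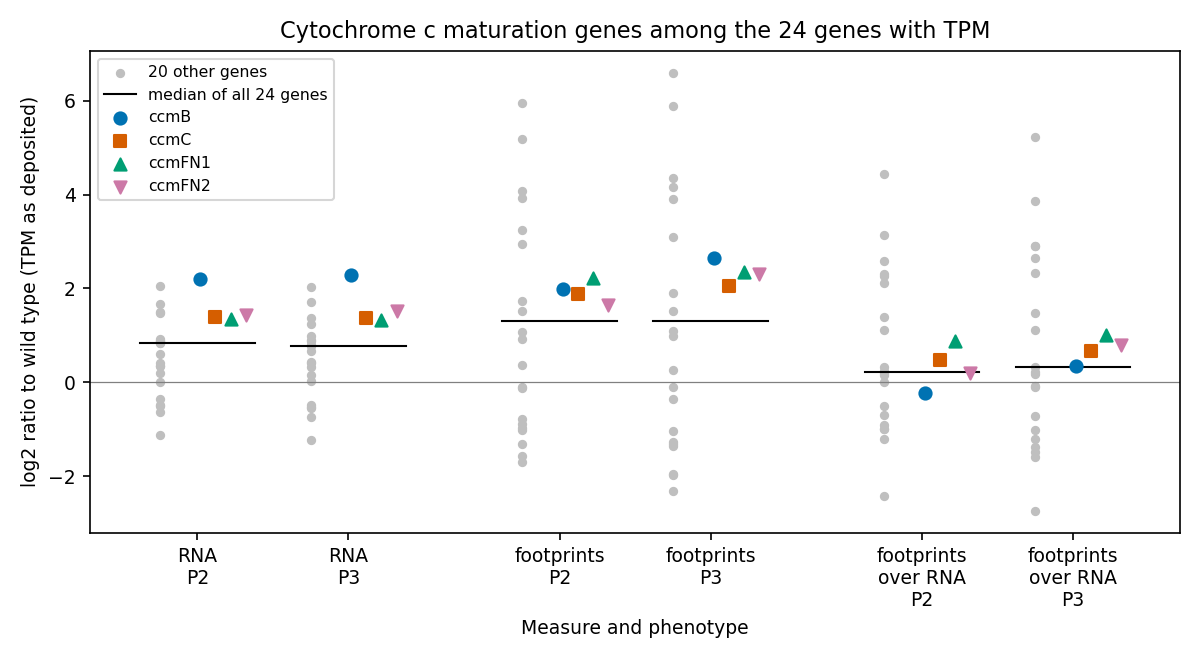
Log2 ratio to wild type of RNA, of footprints and of footprints over RNA in P2 and P3, from TPM as deposited; coloured symbols are the 4 members, grey points the 20 other genes and black lines the median of all 24. The members lie above the median line in RNA and in footprints, with ccmB the highest of all genes in RNA (2.20 and 2.29), and in footprints over RNA on both sides of it in P2 and above it in P3; the footprint and efficiency values fall below 0 in all 4 members when scaled by the share of CDS among all filtered reads.

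Relative translation efficiency, the footprint TPM of a gene divided by its RNA TPM, set the footprint differences against those of RNA. In wild type it was 0.377 for ccmB, 0.612 for ccmC, 0.792 for ccmFN1 and 0.552 for ccmFN2, so each member held a smaller part of the footprints than of the RNA. The values were 0.325, 0.855, 1.47 and 0.637 in P2, and 0.479, 0.975, 1.61 and 0.952 in P3. Only ccmFN1 among the members exceeded 1, in both phenotypes. In P2 the 1 member called higher was ccmFN1 (1.86-fold), against 37.5% of the 24 genes, and in P3 the 3 members called higher were ccmFN1 (2.03-fold), ccmFN2 (1.73-fold) and ccmC (1.59-fold), against 45.8%. No member was called lower, against 25% of the genes in P2 and 29.2% in P3, and for P3 over P2 no member was called, against 12.5% higher and 4.17% lower. For ccmB the log2 ratio was -0.22 in P2 and 0.34 in P3, neither of them called. The median of the group was 0.35 in P2 and 0.73 in P3, beside 0.23 and 0.33 over all genes. These directions depend on the scaling: with median-of-ratios scaling applied to RNA and to footprints separately no member was called higher (group median -0.12 for P2, 0.20 for P3), and all 4 members were called lower in both phenotypes under either CDS share.

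The pair ccmFN1 and ccmFN2 was then compared within each library, where the ratio of the genes does not depend on how the library is scaled. Their proteins complement each other as parts of CcmF. In RNA ccmFN2 exceeded ccmFN1 by 1.89-fold, 2.03-fold and 2.15-fold in wild type, P2 and P3. In footprints ccmFN2 exceeded ccmFN1 by 1.31-fold in wild type and 1.28-fold in P3, while in P2 ccmFN1 was the higher of the pair. The footprint ratio of ccmFN1 over ccmFN2 was thus 0.761, 1.14 and 0.784 in the same order, with P2 apart from the other libraries. None of these 3 footprint ratios reached 1.5-fold in either direction.

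Footprints per RNA were higher on ccmFN1 than on ccmFN2 in all 3 kinds of plants, by 1.44-fold, 2.31-fold and 1.69-fold. From wild type to P2 the log2 ratio of the pair shifted by -0.10 in RNA and 0.58 in footprints, and from wild type to P3 by -0.19 and 0.04. Over all 276 pairs of the 24 genes the median size of such a shift was 0.86 in RNA and 2.23 in footprints for P2, and 0.92 and 2.61 for P3. From P2 to P3 the pair shifted by -0.085 in RNA and -0.54 in footprints, beside median sizes of 0.094 and 0.44. Between the phenotypes the pair's footprint shift was thus larger than the median, and 167 of the 276 pairs had a smaller one. The ccmFN2 ratio behind this shift is the one equal to those of ccmB and tatC, and reads per gene are not given. In the TAIR10.1 gene table, used for names and gene order, ccmFN2, ccmC and ccmFN1 follow each other among the 33 protein-coding genes, with rps12 before and cox3 after them, and no member overlaps a neighbour. On the TPM scale rps12, a ribosomal protein gene, had log2 ratios of 1.49 in P2 and 1.25 in P3 in RNA and of 4.08 and 4.17 in footprints. For cox3, a cytochrome c oxidase gene, they were 0.41 and 0.41 in RNA and 1.52 and 1.52 in footprints. In RNA rps12 thus lay near ccmFN2 and ccmC in P2 and nearest to ccmFN1 in P3, and in footprints it lay above every member. The values of cox3 were below those of every member in RNA and in footprints, with ccmFN2 in P2 footprints (1.65) the closest. Its neighbour ccmFN1 had 1.34 and 1.33 in RNA and 2.23 and 2.35 in footprints.

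**Figure D3:**
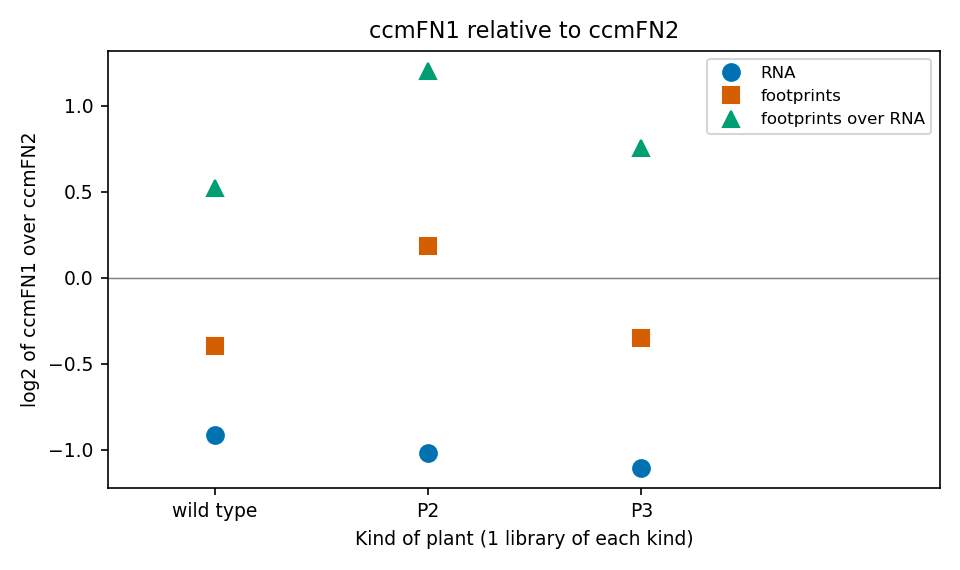
Log2 of ccmFN1 over ccmFN2 in RNA, in footprints and in footprints over RNA for wild type, P2 and P3, with 1 library of each kind per point. RNA points lie below 0 (ccmFN2 higher) at -0.92, -1.02 and -1.11, and the footprint point of P2 (0.19) is the 1 footprint point above 0.

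Ribosomes advance codon by codon, so footprints of translating ribosomes gather in 1 of the 3 reading frames, here called frame 0, and a share of 33.3% per frame is an even spread. In wild type frame 0 held the largest share on each member. It was 65.3% on ccmB, 52.4% on ccmC, 54.6% on ccmFN1, 52.9% on ccmFN2, 55.1% on exon 1 of ccmFc and 60.7% on exon 2. In both phenotypes it was lower on all 6 rows. It was lower by at least 5 percentage points on 5 of 6 rows in P2, ccmC being the exception, and on 6 of 6 in P3, against 89.3% of the 56 named genes and exons in P2 and 89.3% in P3. Between the phenotypes only ccmFN1 among the members passed this limit, with a difference of -5.69 points for P3 against P2, against 25% of the 56 rows.

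Of the 6 rows, the 2 exons of ccmFc departed furthest from wild type. Exon 2 had 60.7% of its wild-type footprints in frame 0, against 12.3% for P2 and 14.4% for P3. Frame 2 held the largest part in both phenotypes, with 59.7% for P2 and 57.2% for P3 against 17.6% for wild type. Frame 1 differed less, from 21.7% to 28.0% and 28.4%. The frame 0 share fell by 48.4 percentage points in P2 and by 46.3 in P3, the largest difference of the 56 rows in each phenotype, and the remaining share was the lowest of the 56. The next largest differences were those of cox2 exon 2 in P2 (-38.0 points) and nad5 exon 4 in P3 (-37.4), both in genes of the respiratory chain. The closest remaining share was that of nad7 exon 1, at 16.7% in P2 and 15.4% in P3.

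Exon 1 of ccmFc had 55.1% of its wild-type footprints in frame 0, against 22.2% for P2 and 22.7% for P3. Frames 1 and 2 were tied at 38.9% in P2, and frame 1 led with 44.9% in P3, where frame 2 held 32.4%. The difference in frame 0 was -32.8 points in P2 and -32.4 in P3, at rank 4 of 56 in each. Unlike exon 2, exon 1 thus had no single dominant frame in P2. For both exons and in every frame, P2 and P3 differed less from each other than either did from wild type.

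Among the 6 rows of the members frame 0 was the largest frame of all 6 in wild type, and it was not the largest for 3 in P2 and 3 in P3, namely ccmFN2 and both exons of ccmFc. Over the 56 rows frame 0 was not the largest for 10.7%, 35.7% and 39.3% in wild type, P2 and P3. Of the 32 exon rows this held for 5 (15.6%), 18 (56.2%) and 19 (59.4%) in the same order. Among the 24 genes of a single row this held for 1 (4.17%), 2 (8.33%) and 3 (12.5%). Over the 30 exon rows of other genes the median difference in frame 0 was -17.6 points in P2 and -16.7 in P3, against -12.1 and -11.3 over the 24 single-row genes. Frame 2 was the largest frame in 10 of those 30 rows in P2 and 11 in P3.

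**Figure D4:**
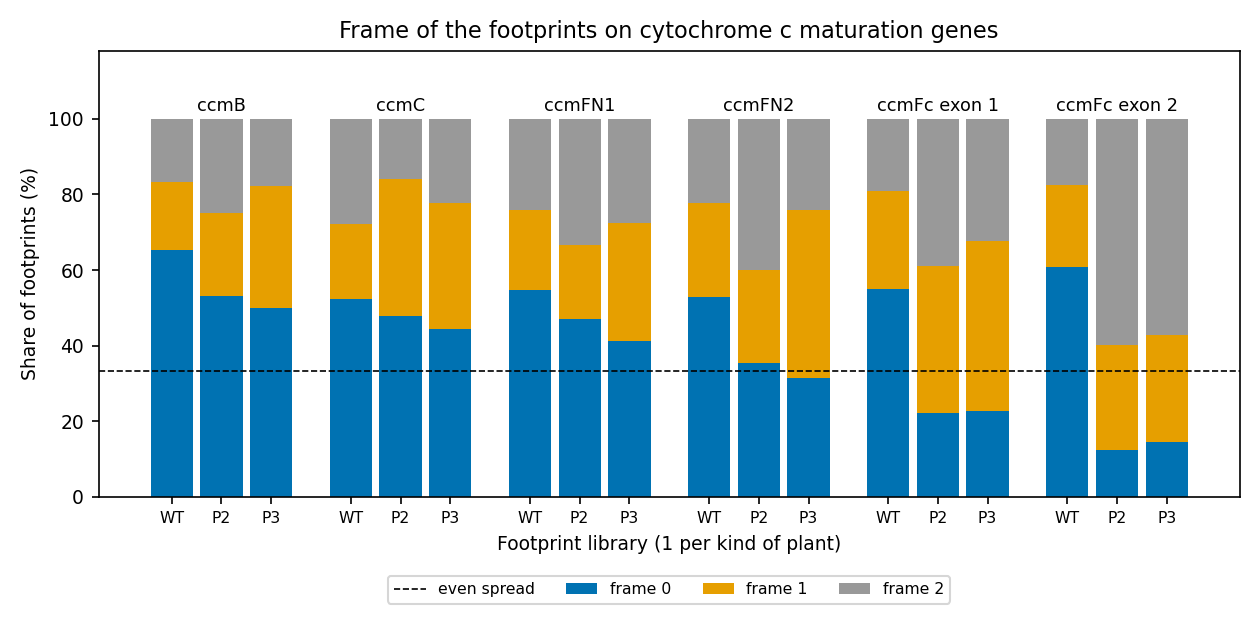
Share of footprints in frames 0, 1 and 2 (stacked, %) for each member gene and each exon of ccmFc in the 3 footprint libraries; the dashed line marks the 33.3% that an even spread would give to frame 0. On ccmFc exon 2, frame 2 holds 59.7% in P2 and 57.2% in P3 against 17.6% in wild type.

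The 4 single-row members kept more of their frame 0 footprints than the exons of ccmFc did. Of these 4, ccmFN2 differed most from wild type (-17.6 points in P2 and -21.5 in P3). Its differences were larger than the medians of the 24 single-row genes (-12.1 and -11.3). On ccmB the share was 65.3%, 53.1% and 50.0% in wild type, P2 and P3, above the median of the 24 single-row genes in each library (59.2%, 47.0% and 45.0%). On ccmC it was 52.4%, 47.7% and 44.3%, the smallest difference within the group (-4.65 and -8.03 points). Measured from the median of the 24 single-row genes in each library, ccmC stood 7.52 points higher in P2 and 6.17 points higher in P3 than in wild type. The frame 1 share of ccmC was 19.8%, 36.4% and 33.5%, and its frame 2 share 27.8%, 15.9% and 22.2%.

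The pair ccmFN1 and ccmFN2 separated in its frames. On ccmFN1 frame 0 held 54.6%, 46.9% and 41.2% and was the largest frame in each library. On ccmFN2 it held 52.9%, 35.3% and 31.3%. The largest frame of ccmFN2 was frame 0 in wild type, frame 2 in P2 (40.0%) and frame 1 in P3 (44.6%). The frame 1 share was 24.9%, 24.7% and 44.6% on ccmFN2 and 21.2%, 19.6% and 31.3% on ccmFN1, so on both genes it was higher in P3 than in the other libraries. The number of footprints behind each share is unknown, and no interval can be given for these differences.

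**Figure D5:**
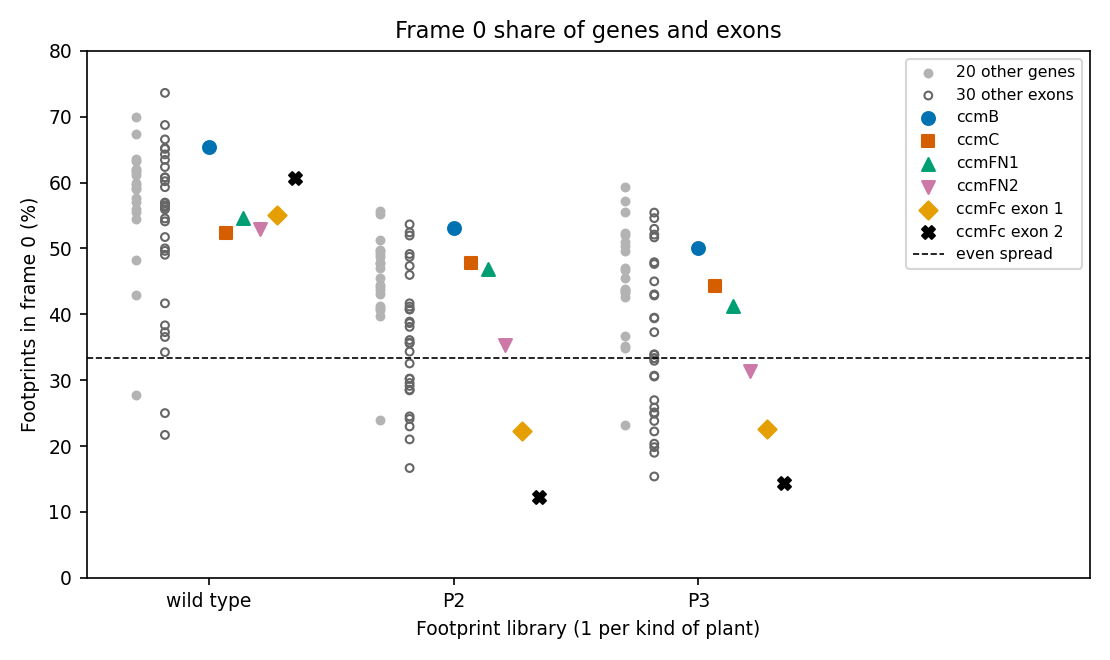
Frame 0 share (%) in the 3 footprint libraries; filled grey points are the 20 other single-row genes, open circles the 30 exons of other genes, coloured symbols the members and the dashed line an even spread. Both exons of ccmFc are among the other rows in wild type and at or near the bottom in P2 and P3, with exon 2 the lowest of the 56 rows at 12.3% and 14.4%.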

How the data were processed

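Mitochondrial footprints and total RNA were sequenced from 3 kinds of plants, 1 library each. STAR and featureCounts are named in the submitters' processing notes. The sources used here do not give their versions and settings, the genome build, the annotation or the rule that assigned footprints to frames. The authors deposited a TPM value for each of 24 mitochondrial genes and library, which sum to 1000000. Frame shares were deposited as a fraction per gene or exon, per the file headers, and are printed as percent. A summary of whole numbers of reads per class was also deposited by the authors.

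Log2 ratios were computed without a pseudocount, efficiency as footprint TPM over RNA TPM, and frame differences in percentage points, with Python 3.11.15, pandas 2.3.3 and numpy 2.4.6. Since the files give no reads per gene, no count model was possible. The arithmetic was tested on simulated data. Named genes were all members, the 3 genes nearest to each by Euclidean distance over 4 ratios, and neighbours in gene order. The 24 names were all found as symbols or synonyms in the gene table of TAIR10.1, with atp6.1 and atp6.2 both looked up as atp6. The gene ccmFc was found there too, spelled ccmFC. Alternatives were median-of-ratios scaling, scaling by a CDS share, leaving out the most abundant gene (atp9 in RNA, cox3 in footprints), a pseudocount of 100 TPM, a minimum of 1000 TPM and a 2-fold call. Members and lists were chosen with earlier results of these data known.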

Additional observations from a re-analysis of the deposited data

Results flagged for a closer look

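3 values of the members differed in sign between P2 and P3 against the same wild-type library. Each P2 value was within the limits used for calls (0.58 log2 units, or 5 percentage points for frame 0), as was the P3 value of ccmB. With 1 library per phenotype these differences were not tested. The log2 ratio of footprints over RNA on ccmB was -0.22 in P2 and 0.34 in P3. The frame 1 share of ccmFN1 footprints differed from wild type by -1.58 percentage points in P2 and 10.1 in P3. That of ccmFN2 differed by -0.198 points in P2 and 19.7 in P3.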

How the results depend on the processing

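Of 201 recomputed group values, 159 were counted as unchanged. The log2 values among these kept their direction and their side of the threshold. Many of the others are counts of members or rows, and a count could differ slightly and still be among the 159. With median-of-ratios scaling 3 members were higher in RNA in P3, against 4. At a call of 10 percentage points frame 0 was lower on 4 rows in P2, against 5, and on 5 in P3, against 6. A pseudocount of 100 TPM and a minimum of 1000 TPM changed no direction or call of the group medians. The minimum removed ccmB from the footprint comparisons with wild type, which left 3 members higher in P2 and 3 in P3.

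With median-of-ratios scaling 2 members were called higher in RNA in P2 and 2 in footprints in P2. For efficiency 0 members were then higher and 1 lower in P2 (median -0.12), and 0 were higher in P3 (median 0.20). In efficiency ccmFN2 turned to -0.26 in P2 and ccmB to -0.19 in P3.

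With scaling by the CDS share of all filtered reads, 0 members were higher and 4 lower in footprints in each phenotype (medians -1.41 and -1.39). The values were -1.36 and -1.08 for ccmB, -1.46 and -1.67 for ccmC, -1.11 and -1.37 for ccmFN1, and -1.69 and -1.42 for ccmFN2. In efficiency 0 were higher and 4 lower in each (medians -2.70 and -2.70). The values that turned were -3.09 for ccmB in P3, -2.56 and -2.76 for ccmC, -2.16 and -2.41 for ccmFN1, and -2.84 and -2.64 for ccmFN2. For P3 over P2, 0 members were higher in footprints and the efficiency median was -0.0081.

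With scaling by the CDS share of mitochondrial genome reads, added after the data were seen, 0 members were higher in footprints in P2 (median 0.084), in P3 (0.26) and in P3 over P2. There ccmFN2 turned to -0.20 in P2 and ccmC to -0.023 in P3. In efficiency 0 were higher and 4 lower in each phenotype (medians -1.15 and -0.96). The values that turned were -1.34 for ccmB in P3, -1.01 and -1.01 for ccmC, -0.60 and -0.67 for ccmFN1, and -1.28 and -0.90 for ccmFN2.

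Without the most abundant gene 3 members were higher in efficiency in P2 (median 0.78), and ccmB turned to 0.21 there. At a 2-fold call 0 members were higher in efficiency in P2 and 1 in P3 (median 0.73), and 0 in footprints in P3 over P2.

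For frame 0, a call at 10 percentage points left 0 of the 6 rows lower in P3 than in P2. Relative to the median gene 3 of the 6 rows (ccmFN2 and the 2 exons of ccmFc) were lower in P2, 3 in P3 and 0 in P3 against P2, and ccmC turned to 7.52 in P2 and 6.17 in P3 and ccmFN1 to 4.48 and 0.83. Apart from the number of genes left by a filter, the cause of these changes was not tested. No paired analysis was possible because each group held 1 library. The reads behind each gene are not in the files used, which limits the precision of every value by an unknown amount.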

Other observations

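The P3 over P2 ratios of footprint TPM were equal for ccmB, ccmFN2 and tatC, at 1.57-fold, to within a relative tolerance of 1e-09. These were the 3 equal pairs among 276 pairs of genes compared in footprints for P3 over P2. RNA and the comparisons with wild type held no equal pair at this tolerance. Equal numbers of reads in P2 and P3 for each of these genes would give such equal ratios, which were not tested for since reads per gene are not in the files used.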
